A study of Mus musculus with 20 samples.

Results

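Mouse lung metabolises inhaled and blood-borne chemicals with its own set of enzymes, and 9 of their genes are described here in lungs of Arg2 knockout and wild type mice kept in hypoxia or room air. They were taken by symbol out of the 24062 genes in the count tables, and all 9 were measured in every sample. Cyp2f2, Cyp4b1, Cyp2b10 and Cyp2s1 encode cytochrome P450 monooxygenases, Fmo1 and Fmo2 encode flavin-containing monooxygenases, Por encodes the reductase that serves the P450s, Aox3 encodes an aldehyde oxidase and Gsta3 a glutathione S-transferase. A P450 is a heme enzyme of the endoplasmic reticulum that inserts an oxygen atom into its substrate with electrons passed from NADPH by the Por protein. Flavin-containing monooxygenases oxidise nitrogen and sulfur atoms of drugs and take their electrons from NADPH directly, while glutathione S-transferases couple the reactive products to glutathione. In mouse airways much of this chemistry is known from club cells, the secretory cells of the bronchioles, where CYP2F2 turns naphthalene into the epoxide that injures them.

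The mice were of a mixed C57/129 strain and 8 to 10 weeks old, and each group had 4 samples of whole lung. The Arg2 knockout mice (Arg2-/-) lack a functional gene for the mitochondrial arginase, and were kept for 28 days in 10% oxygen (knockout hypoxia) or 21% oxygen (knockout room air). Wild type mice (Arg2+/+) went through the same 28 days in 10% oxygen (wild type hypoxia) or 21% oxygen (wild type room air). The labels name both sexes, yet Y-linked counts exceeded Xist in each of the 20 libraries. Whether the numbered samples of a group are separate animals is not stated. A p-value of the main fit reflects the spread of samples within groups, pooled over all 4 groups, and that spread may be technical.

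Knockout room air 3 was the deepest sample, with 63331530 reads counted in genes, and wild type room air 3 the shallowest, with 9531270 and with the smallest share in genes, 25.4% of the reads placed either in or outside genes, where the largest was 64.2%. Arg2 stood at 4.57, 3.22, 5.37 and 3.97 CPM in knockout hypoxia, against 6.33, 11.7, 10.1 and 9.13 CPM in wild type hypoxia, and at 4.58, 5.25, 4.88 and 7.78 CPM in knockout room air, against 8.47, 9.14, 11.8 and 7.30 CPM in wild type room air. Knockout room air 4 thus lay within the wild type range, higher than wild type samples 4 of room air and 1 of hypoxia, and without it Por was the 1 gene of the 9 whose calls changed. Knockout over wild type, the log2 fold change of Arg2 was -1.13 ± 0.22 (SE) in hypoxia (edgeR adjusted p = 0.00191) and -0.70 ± 0.21 in room air (edgeR adjusted p = 0.0842). CPM is the usual depth-scaled count, computed with edgeR after TMM scaling of the reads in genes. Wild type hypoxia 4 stood apart from its group, at 135 to 142 chi-square per degree of freedom from the other 3 samples. This was computed over the 5000 genes with the most counts, thinned to one depth. Other pairs of libraries with different numbers in a group lay between 3.81 and 21.9. The value is a sum over genes, so a few genes with large differences can make up most of it. Their part was not tested. Rn45s, the ribosomal RNA precursor, took 19.9% of the reads in genes of wild type hypoxia 4, against 0.518% to 1.33% in the other 15 samples. Lars2 took 1.69% there, against 0.0127% or less. The lung's own markers were high in every group: Scgb1a1 of club cells averaged 13180 CPM in the knockout and 15120 in wild type in hypoxia, and 15000 and 16430 CPM in room air, and the group means of Sftpc of alveolar type II cells lay between 10280 and 11280 CPM. Summed markers of another organ exceeded 5 times their median over the 16 samples, and 20 CPM, in 3 samples. Pancreas genes summed to 1941 CPM in knockout hypoxia 1 and 147 CPM in knockout hypoxia 2, and skeletal muscle genes to 1356 CPM in wild type room air 1. Below that limit, thymus genes summed to 118 CPM in knockout room air 3 and 104 CPM in knockout room air 4, against 25.8 to 46.4 CPM in the other 14 samples. Heart muscle genes summed to 975 CPM in knockout room air 3, against 549 CPM or less elsewhere. Pancreas genes in knockout hypoxia 3 narrowly missed the 20 CPM, at 19.9 CPM, though over 5 times their median of 3.23 CPM. The liver, which is rich in these enzyme families, left little trace, with Alb at no more than 12.4 CPM, in knockout hypoxia 4, and 10 liver markers summing to no more than 19.8 CPM. In bulk lung, fewer cells of a type and less RNA per cell cannot be told apart.

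Of the P450 genes, 3 share chromosome 7 of GRCm38 (GENCODE vM21 gene bodies): Cyp2f2 at chr7:27119909-27133660 and Cyp2b10 at chr7:25897620-25926624 on the plus strand, and Cyp2s1 at chr7:25802475-25816913 on the minus strand. Cyp4b1 lies at chr4:115624725-115647723 on the minus strand. Fmo1 at chr1:162829561-162866610 and Fmo2 at chr1:162874317-162898726 are neighbours on the minus strand of chromosome 1, which also carries Gsta3 at chr1:21240589-21265661 and Aox3 at chr1:58113130-58200698, both on the plus strand. Por lies at chr5:135670033-135735326 on the plus strand. Exons of Cyp2f2 share 274 bases with an antisense gene, Gm15883, and those of Cyp2s1 share 260 bases with Gm26707 on the opposite strand. No source used here gives the strand setting of the authors' counting, so the assignment of reads in those stretches is uncertain.

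RefSeq (GRCm38.p6) promoter windows were found for 8 of the 9 genes, all but Fmo1. The stretch from 250 to 51 bases before the annotated start, 200 bases, is printed 5′ to 3′ on the gene's strand for 4 genes that differ in how their levels moved: Cyp4b1, lower in hypoxia in both genotypes, Cyp2f2 and Aox3, called lower in hypoxia in the knockout, and Cyp2b10, called higher there. Capitals mark matches, on either strand, to any of 7 searched motifs. The hypoxia response element core was searched as ACGTG, and in a second form as GCGTG, which is also the core bound by the aryl hydrocarbon receptor. The CCAAT box was searched as those letters and the GC box of Sp1 was searched in the form GGGCGG. The site of AP-1 was searched as TGANTCA, that of the FOXA factors was taken to be TGTTTAC, and the antioxidant response element was represented by TGACNNNGC.
Cyp4b1 (chr4:115647772-115647971, minus strand): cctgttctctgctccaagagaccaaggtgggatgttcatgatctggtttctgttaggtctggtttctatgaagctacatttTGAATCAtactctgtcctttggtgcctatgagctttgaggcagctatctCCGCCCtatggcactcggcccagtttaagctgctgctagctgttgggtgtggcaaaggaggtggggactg
Cyp2f2 (chr7:27119705-27119904, plus strand): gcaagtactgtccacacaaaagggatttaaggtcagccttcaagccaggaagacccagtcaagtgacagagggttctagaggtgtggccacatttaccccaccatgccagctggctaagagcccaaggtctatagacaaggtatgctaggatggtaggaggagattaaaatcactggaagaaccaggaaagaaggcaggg
Aox3 (chr1:58112886-58113085, plus strand): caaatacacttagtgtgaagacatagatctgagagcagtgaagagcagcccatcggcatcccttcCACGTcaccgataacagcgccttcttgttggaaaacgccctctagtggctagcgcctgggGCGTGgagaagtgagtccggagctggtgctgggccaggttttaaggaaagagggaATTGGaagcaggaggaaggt
Cyp2b10 (chr7:25897408-25897607, plus strand): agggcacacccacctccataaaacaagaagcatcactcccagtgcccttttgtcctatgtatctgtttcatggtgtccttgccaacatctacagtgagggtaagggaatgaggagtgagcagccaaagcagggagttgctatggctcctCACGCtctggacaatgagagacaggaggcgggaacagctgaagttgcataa

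The Cyp2f2 window held none of the searched letters and no CG dinucleotide, against a median of 4 CG per window over all 32851 promoter windows of the table. The Cyp4b1 window held the AP-1 letters, found in 5.57% of all windows, and a GC box on the opposite strand, found in 24.6%. The Aox3 window held the first and the second form of the hypoxia response core, found in 12.9% and 22.6% of all windows, and the CCAAT box, found in 28.4%. In Aox3 the first form and the CCAAT box lay on the opposite strand and the second form on the gene's strand. The Cyp2b10 window held the second form of the core alone, on the opposite strand. Among the windows not printed, Por held that second form and the GC box and had 16 CG dinucleotides, Cyp2s1 held the GC box, Gsta3 held the CCAAT box and the antioxidant element (7.66% of all windows), and Fmo2 held none in either of its windows. No member's window held the FOXA letters, which 2.58% of all windows held. These are matches of letters in a short window and say nothing about whether a factor binds there.

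**Figure D1:**
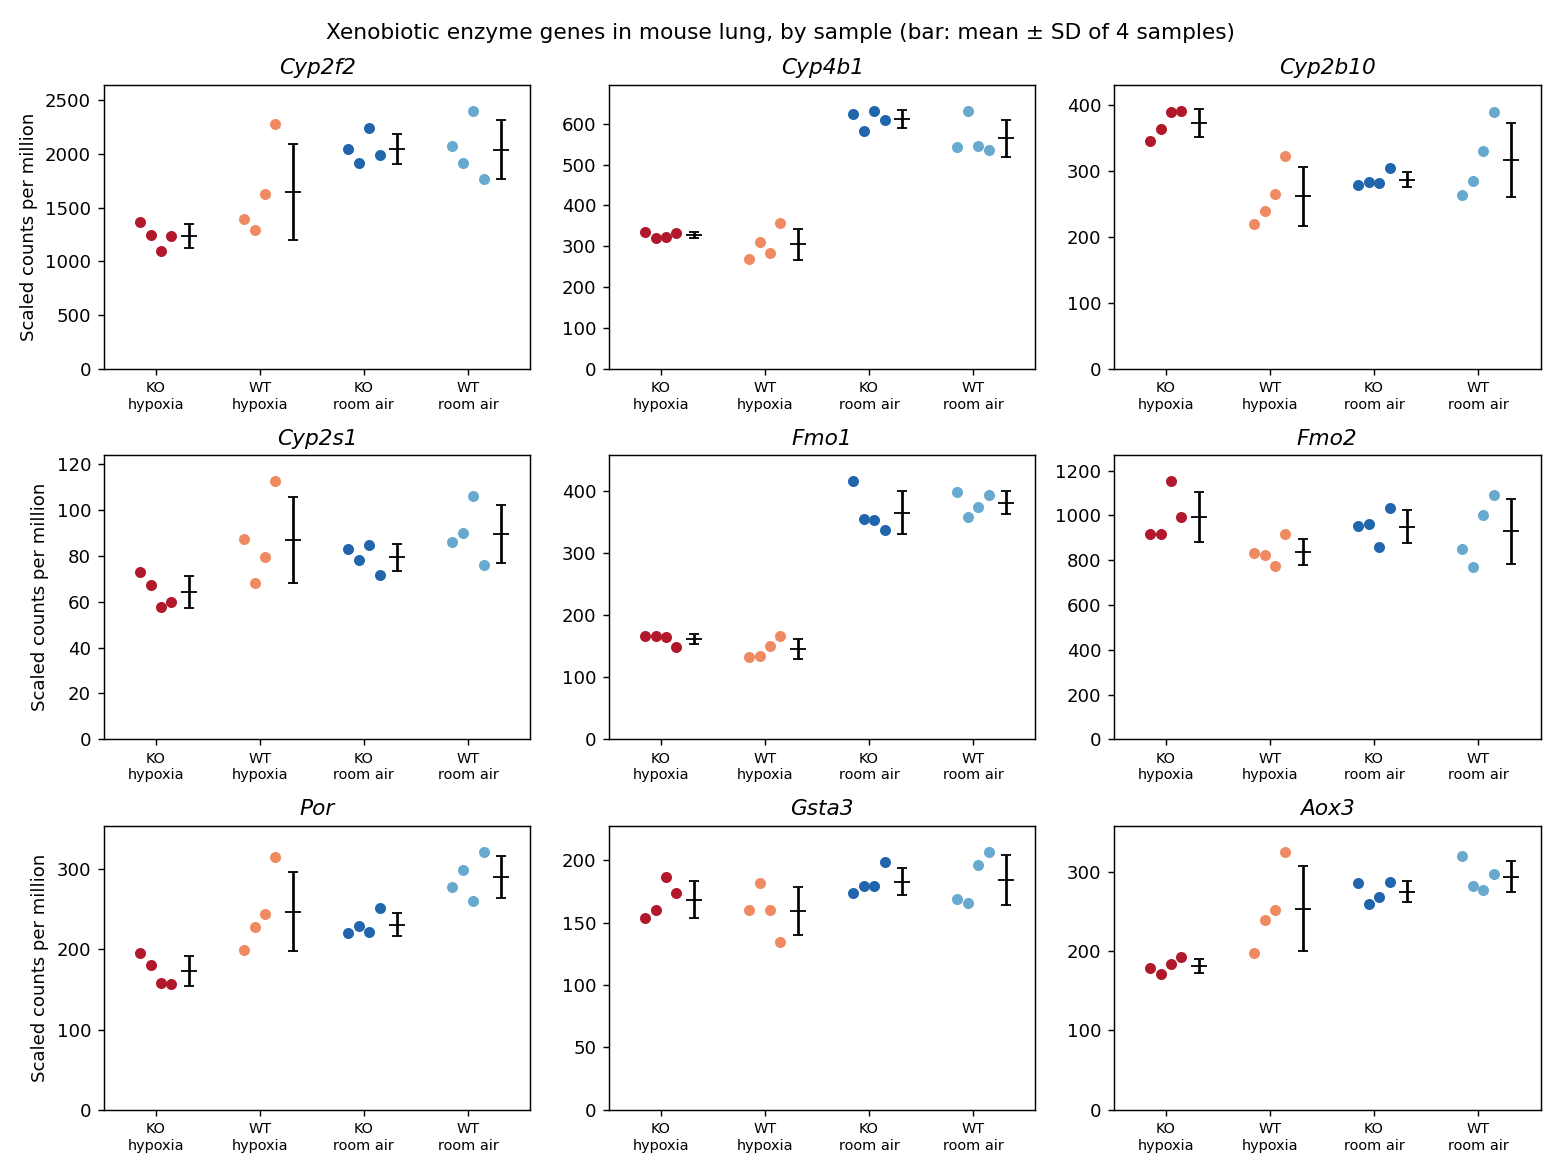
CPM (y axis, from 0) of the 9 genes in each of the 16 samples, grouped on the x axis as knockout (KO) hypoxia, wild type (WT) hypoxia, KO room air and WT room air; points are samples in the order of their numbers and the bar beside them is the mean ± SD of 4. Fmo1 and Cyp4b1 split by oxygen in both genotypes, with all hypoxia samples at or below 166 and 356 CPM and all room air samples at or above 337 and 536 CPM.

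Fmo1 and Cyp4b1 fell in hypoxia in both genotypes, and theirs were the largest falls of the 9 genes. Fmo1, whose product N- and S-oxygenates drugs and amines, stood at 166, 166, 165 and 149 CPM in knockout hypoxia samples 1 to 4, against 416, 355, 352 and 337 CPM in knockout room air samples 1 to 4. In wild type lungs it stood at 133, 133, 151 and 166 CPM in hypoxia, against 398, 358, 373 and 394 CPM in room air. The hypoxia and room air samples did not overlap in either genotype, and every hypoxia sample held less than every room air sample of the series. The log2 fold change was -1.18 ± 0.09 in the knockout, a 2.26-fold lower level (SE; edgeR quasi-likelihood test, Benjamini-Hochberg adjusted p = 6.53e-08), and -1.39 ± 0.09 in wild type, 2.61-fold lower (edgeR adjusted p = 9.55e-09). The difference between the 2 effects was 0.21 ± 0.12 (edgeR adjusted p = 0.471).

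Cyp4b1 encodes a P450 that hydroxylates fatty acids and activates lung toxicants such as 4-ipomeanol. It had 336, 321, 323 and 332 CPM in knockout hypoxia, against 623, 583, 632 and 608 CPM in knockout room air. Wild type lungs had 269, 310.2, 282 and 356 CPM in hypoxia, against 543, 630.4, 546 and 536 CPM in room air. The 4 knockout hypoxia samples lay between 321 and 336 CPM, and neither genotype's hypoxia samples reached its room air samples. The fall was 1.86-fold in the knockout, a log2 fold change of -0.90 ± 0.09 (edgeR adjusted p = 8.83e-07), and 1.85-fold in wild type, -0.89 ± 0.09 (edgeR adjusted p = 2.35e-06). The effects of the genotypes differed by -0.01 ± 0.12 log2 units (edgeR adjusted p = 0.984). Between knockout and wild type, Cyp4b1 and Fmo1 did not pass the test in hypoxia, at 0.11 ± 0.08 and 0.15 ± 0.09 (edgeR adjusted p = 0.372 and 0.228).

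A further 3 genes were called lower in hypoxia in the knockout: Cyp2f2, Aox3 and Por. Cyp2f2, the naphthalene-oxidising P450, had 1370, 1244, 1097 and 1240 CPM in knockout hypoxia, against 2049, 1916, 2239 and 1988 CPM in knockout room air, with no overlap. In wild type lungs it had 1390.3, 1289, 1628 and 2278 CPM in hypoxia, against 2074, 1919, 2403 and 1766 CPM in room air. Here the groups overlapped through wild type hypoxia 4, whose level exceeded those of 3 of the 4 room air samples; by plain library totals they did not, with at most 1816 CPM in hypoxia and at least 1830 CPM in room air. The log2 fold change was -0.73 ± 0.14 in the knockout, 1.65-fold lower (edgeR adjusted p = 0.00142), and -0.31 ± 0.14 in wild type (edgeR adjusted p = 0.274), a difference between effects of -0.42 ± 0.20 (edgeR adjusted p = 0.353).

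Aox3, a molybdenum- and flavin-containing oxidase of aldehydes and nitrogen heterocycles, had 178, 172, 184 and 193 CPM in knockout hypoxia, against 286, 259, 268 and 287 CPM in knockout room air. Wild type lungs had 198, 239, 252 and 325 CPM in hypoxia, against 320.3, 282, 276 and 297 CPM in room air. Knockout hypoxia lay below all other samples of the series, while wild type hypoxia spread from below to above the room air range. By plain library totals the highest wild type hypoxia sample, at 259.5 CPM, lay below the lowest wild type room air sample, at 269.8 CPM. The fall in the knockout was 1.51-fold, a log2 fold change of -0.60 ± 0.11 (edgeR adjusted p = 0.000746). In wild type the value was -0.21 ± 0.11 (edgeR adjusted p = 0.344), and the effects differed by -0.39 ± 0.15 (edgeR adjusted p = 0.258).

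Por, the electron donor of the microsomal P450s, had 196, 181, 159 and 157 CPM in knockout hypoxia, against 219.8, 229.5, 222 and 252 CPM in knockout room air. In wild type lungs it had 199, 228, 244 and 315 CPM in hypoxia, against 278, 299, 261 and 322 CPM in room air. The knockout hypoxia samples were the lowest of the series, and in room air too every knockout sample lay below every wild type sample, although these groups overlapped by library totals with or without Rn45s. The log2 fold change for hypoxia was -0.42 ± 0.12 in the knockout, 1.33-fold lower (edgeR adjusted p = 0.0167), and -0.23 ± 0.12 in wild type (edgeR adjusted p = 0.327). The difference between these effects was -0.18 ± 0.16 (edgeR adjusted p = 0.686). The call in the knockout was lost without knockout hypoxia 3 (edgeR adjusted p = 0.0594) or 4 (0.0618), without knockout room air 4 (0.0542), and without knockout room air 3 and 4 together (0.12).

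Cyp2b10 was the member called higher in hypoxia in the knockout. It encodes a P450 best known from mouse liver, where drugs acting through the receptor CAR induce it. Its levels were 346, 363, 389.7 and 391 CPM in knockout hypoxia, against 279, 283, 281 and 304 CPM in knockout room air, without overlap. Wild type lungs had 219, 239, 265 and 323 CPM in hypoxia, against 263, 285, 330.2 and 389.7 CPM in room air, with overlap and a lower mean in hypoxia. The log2 fold change was 0.38 ± 0.12 in the knockout, 1.30-fold (edgeR adjusted p = 0.0311), and -0.28 ± 0.12 in wild type (edgeR adjusted p = 0.232). The difference between the effects, 0.66 ± 0.17, was the largest of the 9 genes and had an unadjusted p of 0.000867 and an edgeR adjusted p of 0.0771. DESeq2 called this difference (adjusted p = 0.0155), and so did edgeR with the replicate number as a block (0.0156), by plain library totals (0.0423), without wild type hypoxia 4 (0.0279) and without wild type room air 1 (0.0413). The call of the rise in the knockout was lost in 10 of 31 alternatives, among them leaving out any of knockout hypoxia 2, 3 or 4 or knockout room air 1, 2 or 3, with log2 fold changes of 0.32 to 0.45 over all 31.

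Cyp2s1, Fmo2 and Gsta3 did not pass the test for hypoxia in either genotype in the fit of all samples. Cyp2s1, a P450 of epithelia, averaged 64.5 ± 6.99 CPM in knockout hypoxia and 79.5 ± 5.89 in knockout room air (SD, n = 4 each), a log2 fold change of -0.30 ± 0.13 (edgeR adjusted p = 0.119). It was called lower in the knockout in 4 alternatives, which were the fit of the compared groups only (-0.32, edgeR adjusted p = 0.0136), library B alone (-0.37, 0.0473), and plain library totals (0.0273) and those without Rn45s (0.0445), both at -0.36. Its wild type means were 87.0 ± 18.8 CPM in hypoxia and 89.7 ± 12.6 in room air, -0.04 ± 0.13 (edgeR adjusted p = 0.926). Fmo2, a flavin-containing monooxygenase of lung, averaged 995 ± 111 CPM in hypoxia and 950.5 ± 71.8 in room air in the knockout, and 837 ± 59.7 CPM in hypoxia and 929 ± 144 in room air in wild type. Its log2 fold changes were 0.07 ± 0.11 in the knockout and -0.15 ± 0.11 in wild type (edgeR adjusted p = 0.737 and 0.544). Fmo2 and Fmo1 lie next to each other on chromosome 1, and their log2 fold changes for hypoxia were 0.07 ± 0.11 and -1.18 ± 0.09 in the knockout. Gsta3, which conjugates electrophiles such as aflatoxin epoxide in mice, averaged 169 ± 14.9 CPM in knockout hypoxia and 183 ± 11.0 in knockout room air, and 159 ± 19.4 CPM in wild type hypoxia and 185 ± 20.1 in wild type room air, with log2 fold changes of -0.12 ± 0.10 and -0.21 ± 0.10 (edgeR adjusted p = 0.463 and 0.283).

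Hypoxia in the knockout thus changed 6 of the 9 genes, 5 lower and 1 higher, where 17.0% of the 15766 genes tested were called, 9.1% lower and 7.93% higher. In wild type 2 of the 9 were called, both lower, against 4.98% of all genes and 2.31% called lower. The median log2 fold change of the 9 was -0.42 in the knockout and -0.23 in wild type, beside 0.00 and -0.01 over all genes tested, and all 9 values were negative in wild type. For the difference between the hypoxia effects, edgeR called 0 of the 9, against 0.501% of all genes. At an unadjusted p under 0.05 it passed 3 of the 9 (Cyp2b10, Aox3 and Cyp2f2), against 14.1% of all genes. DESeq2 called 1 of the 9 at its adjusted p, against 493 genes out of all 24062 listed, of which 19991 had a count in any sample. For limma voom the count was 0 of the 9, against 83 of 15766 genes. The smaller number called in wild type therefore does not show that wild type lungs responded less.

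**Figure D2:**
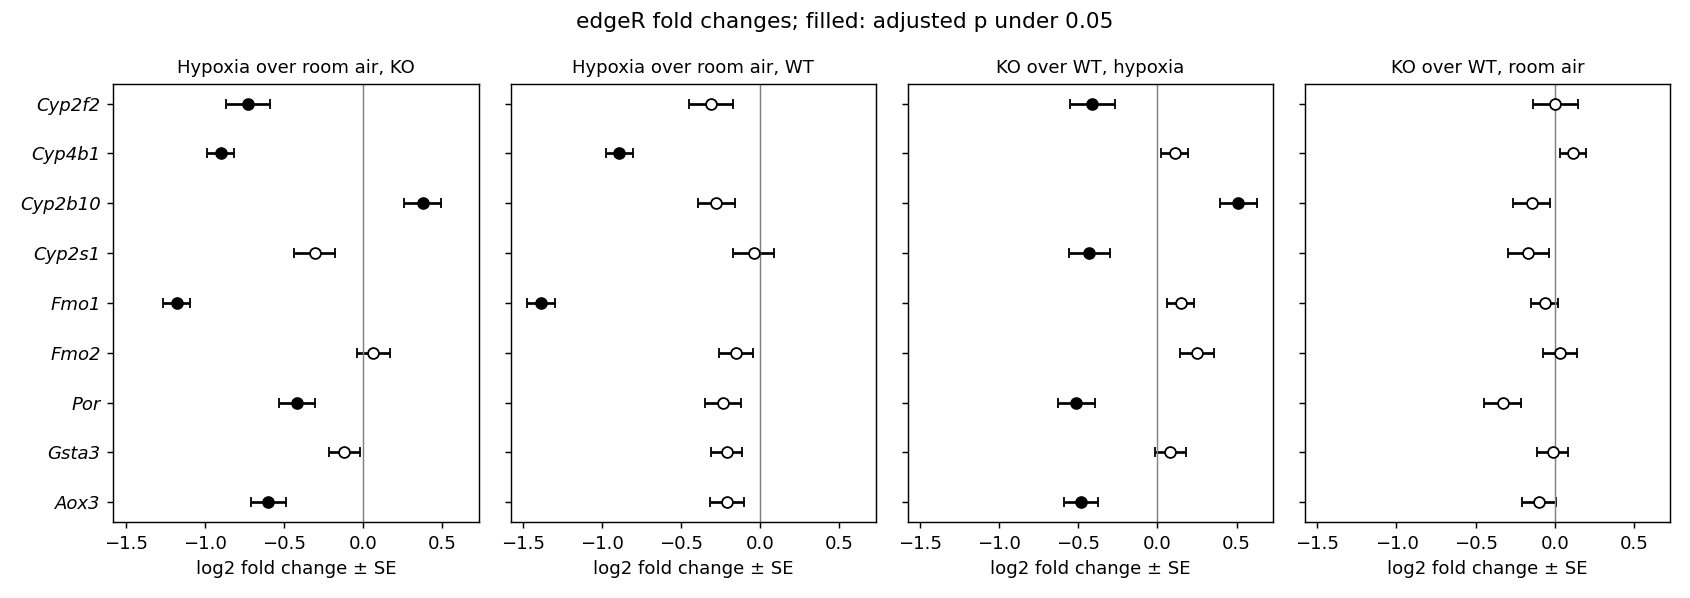
Log2 fold changes (x axis) with their standard errors for the 9 genes (rows) in 4 comparisons from 1 edgeR fit of 16 samples; filled circles passed an adjusted p of 0.05. Cyp4b1 and Fmo1 are filled in both hypoxia comparisons, Cyp2b10 is the filled circle on the positive side, and no circle is filled in the panel of knockout over wild type in room air.

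Between genotypes in hypoxia, 5 of the 9 genes passed the test: Cyp2b10 was higher in the knockout, and Cyp2f2, Cyp2s1, Por and Aox3 were lower. Over all genes tested 23.0% were called in this comparison, 12.1% lower and 11.0% higher. Cyp2b10 averaged 373 ± 21.9 CPM in knockout hypoxia and 262 ± 45.1 in wild type hypoxia, 1.42-fold higher, with a log2 fold change of 0.51 ± 0.12 (edgeR adjusted p = 0.00573) and no overlap. Por averaged 173 ± 18.7 against 247 ± 49.2 CPM, -0.51 ± 0.12 (edgeR adjusted p = 0.00504), and Aox3 averaged 182 ± 8.95 against 254 ± 53.0 CPM, -0.48 ± 0.11 (edgeR adjusted p = 0.00496), both without overlap between knockout hypoxia and wild type hypoxia. Cyp2f2 at -0.41 ± 0.14 (edgeR adjusted p = 0.0418) and Cyp2s1 at -0.43 ± 0.13 (edgeR adjusted p = 0.0234) were lower with overlapping samples. The Cyp2f2 call was lost in 14 of 31 alternatives, among them limma voom (adjusted p = 0.0507), no filter on low counts (0.0506), the replicate block (0.0562) and the compared groups only (0.0819). Fmo2 was at 0.25 ± 0.11 (edgeR adjusted p = 0.0932) and Gsta3 at 0.08 ± 0.10 (edgeR adjusted p = 0.583). The median over the 9 was 0.08, beside -0.01 over all genes.

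Between genotypes in room air edgeR called 0 of the 9 genes, against 0.0761% of all genes tested. DESeq2 and limma voom also called 0 of the 9, but they called more of all genes. DESeq2 called 1120 genes and limma voom 959 of 15766, where edgeR called 12. DESeq2 was given all 24062 genes listed, of which 19991 had a count in any sample, so its share is not comparable with the others. At an unadjusted p under 0.05, 1 of the 9 passed, Por at -0.33 ± 0.12 (edgeR adjusted p = 0.114), where 21.6% of all genes did. Leaving out wild type room air 3, the sample with the fewest reads in genes, Por was called at -0.38 (edgeR adjusted p = 0.0459), and 2198 rather than 12 of all genes were called. The other 8 genes lay between -0.17 and 0.12 in this comparison, and their adjusted p was 0.444 or more.

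One sample, wild type hypoxia 4, decided several of these calls. Within its group it was the highest for Cyp2f2, Cyp4b1, Cyp2b10, Cyp2s1, Fmo1, Fmo2, Por and Aox3 and the lowest for Gsta3; its log2 level lay 0.50 above the group mean for Cyp2f2, 0.40 for Cyp2s1, 0.38 for Aox3 and 0.37 for Por, and 0.23 below it for Gsta3. The same sample had the lowest Sftpc of its group, 8229 CPM against 10950 to 12650 CPM in the other 3, while its Scgb1a1 of 15320 CPM lay within their 12450 to 18080 CPM. Without it, 6 of the 9 genes were called for hypoxia in wild type, with 5.77% of all genes called: Cyp2f2 at -0.51 (edgeR adjusted p = 0.0108), Cyp2b10 at -0.39 (0.0436), Por at -0.37 (0.0312) and Aox3 at -0.35 (0.0188) joined Fmo1 and Cyp4b1. Between genotypes in hypoxia, 3 of the 9 were then called, with 17.7% of all genes called, and Cyp2f2 at -0.21 and Cyp2s1 at -0.28 no longer passed (edgeR adjusted p = 0.199 and 0.111). That count was also 3 without knockout hypoxia 3, where Cyp2f2 (0.12) and Cyp2s1 (0.0736) did not pass, and without knockout hypoxia 4 (0.0901 and 0.0749). The calls over all genes fell as well, to 2365 of 15895 without knockout hypoxia 3 and 2093 of 15887 without knockout hypoxia 4, from 3633 of 15766. The place of this sample also depends on how Rn45s enters the library total. By plain totals, which include Rn45s, its CPM were 0.798 of the TMM-scaled ones, and by totals without Rn45s 0.996 of them. Its log2 level of Cyp2f2 then lay 0.24 above the group mean by plain totals and 0.47 above it by totals without Rn45s, and that of Aox3 0.11 and 0.35 above it. Between hypoxia and room air in wild type, Cyp2f2, Cyp2b10, Por and Aox3 overlapped by TMM scaling and by totals without Rn45s, and did not overlap by plain totals. By plain totals 4 of the 9 were called there, Cyp2f2 at -0.42 (edgeR adjusted p = 0.0277) and Cyp2b10 at -0.38 (0.0376) joining Fmo1 and Cyp4b1, while the totals without Rn45s gave 2. Plain totals moved the 15766 tested genes down as well. They called 239 higher and 493 lower in wild type hypoxia, with a median of -0.09. By TMM scaling these were 421, 364 and -0.01. The shift by plain totals was thus not confined to these enzymes. The part of its ribosomal RNA reads in the enzyme levels of wild type hypoxia 4 was not tested beyond these scalings.

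**Figure D3:**
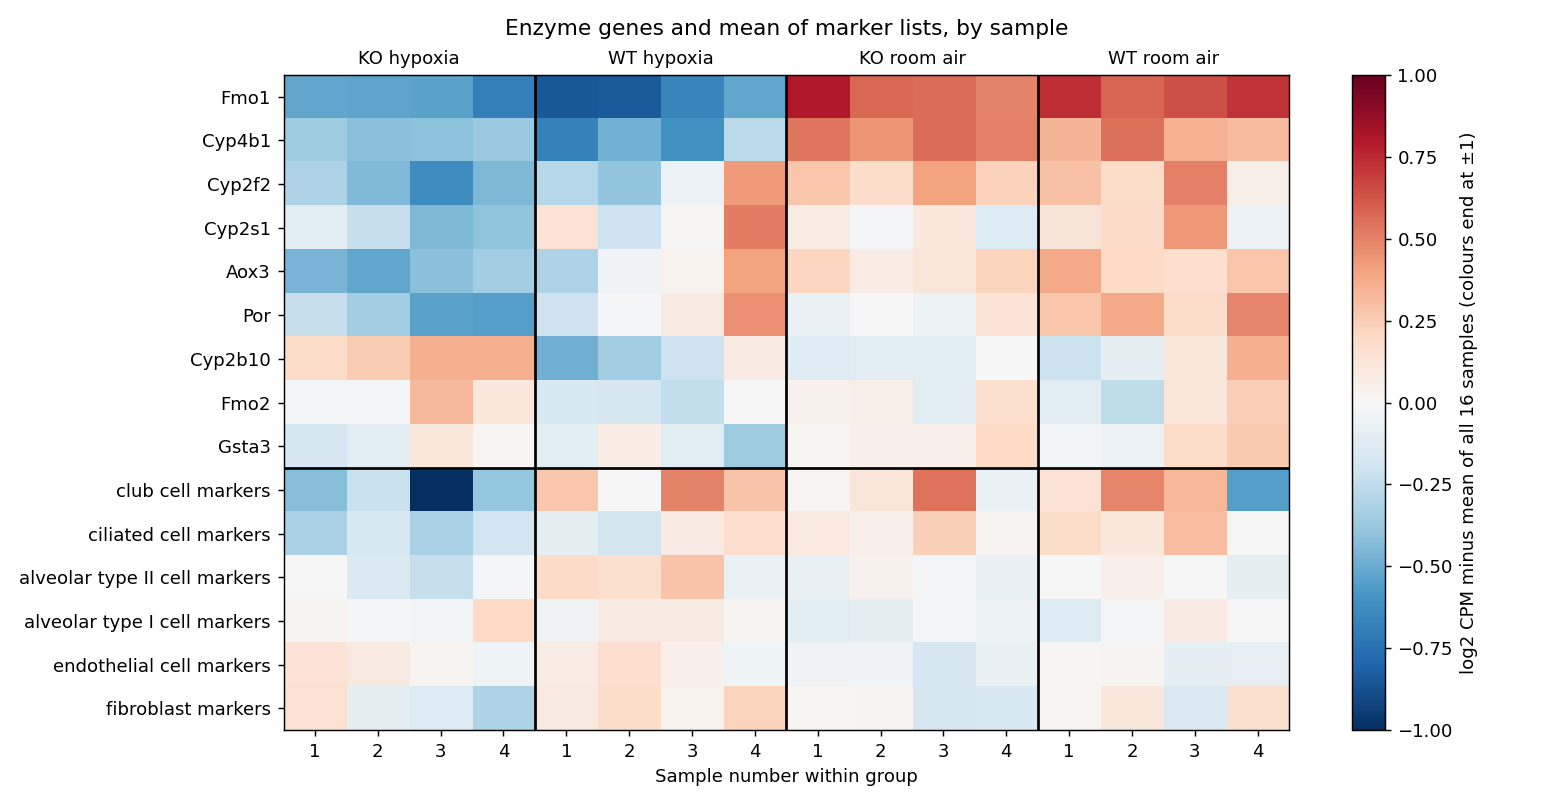
Log2 CPM of the 9 genes, and the mean over the tested genes of 6 cell type marker lists, minus the mean of all 16 samples (colour), with one column per sample in the order knockout (KO) hypoxia, wild type (WT) hypoxia, KO room air and WT room air. Wild type hypoxia 4 is red for Cyp2f2, Cyp2s1, Aox3 and Por where the rest of its group is mostly blue or pale, and club cell markers are lowest in knockout hypoxia 3, at -1.05.

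Markers of airway cells, and of some other cell types, moved in part with the genes that were lower in the knockout in hypoxia. Among all genes tested, hypoxia lowered 9.1% in the knockout and 2.31% in wild type, and raised 7.93% in the knockout. Between genotypes in hypoxia 12.1% were lower and 11.0% higher in the knockout. Of 13 club cell markers tested, 3 fell and 0 rose in the knockout in hypoxia against room air, with a median log2 fold change of -0.23. In hypoxia 5 of them were lower and 0 higher in the knockout than in wild type, with a median of -0.47. The summed club cell level, most of it Scgb1a1, was 14800 to 16850 CPM in knockout hypoxia, 14910 to 21390 in wild type hypoxia, 16950 to 19200 in room air in the knockout and 15070 to 24740 in room air in wild type. Of 9 ciliated cell markers, 4 fell in knockout hypoxia against room air and 4 were lower than in wild type hypoxia, and their summed level was 541 to 575 CPM in knockout hypoxia and 607 to 729 in wild type hypoxia, and in room air 698 to 793 in the knockout and 680 to 829 in wild type. In wild type, 1 of 13 club cell and 1 of 9 ciliated cell markers fell in hypoxia, with medians of 0.06 and -0.16, while Fmo1 and Cyp4b1 fell at -1.39 and -0.89. Of 10 alveolar type II markers, 2 fell in the knockout in hypoxia and 0 in wild type, and of 8 endothelial markers 3 rose and 1 fell in the knockout. Between genotypes in hypoxia, 4 of the 10 type II markers were lower in the knockout and 0 higher, with a median of -0.26. Of 8 fibroblast markers 4 were lower there and 0 higher, with a median of -0.20. The endothelial list had 3 higher and 2 lower, and 8 alveolar type I markers had 0 higher and 1 lower. Scgb1a1 did not pass for hypoxia in the knockout, at -0.19 (edgeR adjusted p = 0.414), or between genotypes in hypoxia, at -0.20 (edgeR adjusted p = 0.322). Nor did Foxj1 of ciliated cells, at -0.11 (edgeR adjusted p = 0.712) and 0.16 (edgeR adjusted p = 0.522). None of the defining markers was at 0 in any sample. The part of the cell makeup in the enzyme results was not tested.

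Compared as CPM per kilobase of merged exons, Cyp2f2 was the most abundant of the 9 in every group, at 611 in the knockout and 813 in wild type in hypoxia and at 1011 and 1008 in room air, and Cyp2s1 the least, at 13.1, 17.6, 16.1 and 18.2 CPM per kilobase in the same order of groups. Cyp4b1 was second in room air, at 271 in the knockout and 249.9 in wild type, ahead of Fmo2 at 169.5 and 166. In hypoxia Fmo2 came second, at 177 in the knockout and 149 in wild type, where its samples overlapped those of the third gene, Cyp2b10 in the knockout and Cyp4b1 in wild type. Fmo1 stood at 25.6 and 23.1 CPM per kilobase in knockout and wild type hypoxia, eighth in both, against 57.9 and 60.4 in room air, where it was the fifth in the knockout and the sixth in wild type. In knockout hypoxia the samples of Aox3 and Fmo1 overlapped, as did those of Por and Gsta3; in wild type hypoxia those of Fmo1 and Cyp2s1 and of Gsta3 and Aox3 overlapped, and those of Cyp4b1 and Cyp2b10. In room air Gsta3 and Aox3 overlapped in both genotypes, Fmo1 and Por in the knockout, and Fmo2 and Cyp2b10 in wild type. Lengths of merged exons understate genes with long rarely used exons. Per kilobase of the longest coding transcript, Gsta3 stood at 116, 109, 126 and 127 in the same order of groups, against 38.8, 36.7, 42.1 and 42.5 by merged exons. This moves its mean above that of Por in every group, while it stood above that of Aox3 by both lengths. Fmo1 by that length stood at 67.6 and 61.1 in knockout and wild type hypoxia, the sixth and the seventh of the 9, and at 153 and 159.5 in knockout and wild type room air, the fourth and the fifth. Cyp2f2 stayed first and Cyp2s1 last.

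Across the 16 samples, log2 levels of Fmo1 and Cyp4b1 went together (Pearson r = 0.97, a description over samples that share the groups), and with the group means removed r was 0.27. Cyp2f2 and Cyp2s1 had r = 0.81, and 0.88 with the group means removed, and Cyp2b10 and Fmo2 had 0.74 and 0.70. Aox3 had r = 0.88 with Por and 0.87 with Cyp2f2, and 0.67 and 0.60 with the group means removed. Outside the 9, the tested genes with the highest r over the 16 samples were Slc16a9 for both Fmo1 (0.99) and Cyp4b1 (0.97), followed by Ednrb (0.98) and Myzap (0.97) for Fmo1 and by Cyp1a1 and Myzap (0.96 each) for Cyp4b1. For Aox3 they were Slc16a11 (0.98), Dnah7b (0.96) and Wdr63 (0.95), for Por Ppl, Epha1 and Col4a6 (0.93 to 0.94), for Cyp2s1 they included Chad and Esrp1 (0.94 to 0.95), and for Cyp2f2 Traf3ip1, Dnaic2 and Acsm1 (0.93 each). For Cyp2b10 they were Lpin2, Cnst and Wdr48 (0.90 to 0.91), for Fmo2 Prex2 (0.93), Qtrtd1 and Fam76a (0.83 to 0.84), and for Gsta3 Esd, Glb1l3 and Maged2 (0.83 to 0.87). Each of these is among the highest of 15766 genes by selection.

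The same pathways hold 103 further tested genes in 4 lists of other phase I enzymes, other phase II enzymes, suppliers of electrons and heme, and xenobiotic receptors with their partners. For hypoxia in the knockout 6 of the 103 rose and 19 fell, 24.3% in all beside 17.0% of all genes, with a median log2 fold change of -0.11. In wild type 1 rose and 7 fell, 7.8% beside 4.98%, with a median of -0.09. Between genotypes 9 were higher and 14 lower in knockout hypoxia, 22.3% beside 23.0%, and edgeR called 0 of them in room air, beside 0.0761% of all genes. The falls lay mostly with enzymes: 10 of 43 phase I and 8 of 31 phase II genes fell in the knockout in hypoxia and 1 of each rose. Of 14 electron and heme genes 3 rose and 0 fell. Of all genes 9.1% fell and 7.93% rose there.

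In the knockout, the 4 genes with the smallest p among those lower in hypoxia were Adh7, an alcohol dehydrogenase that oxidises retinol, at -1.18 ± 0.14 (edgeR adjusted p = 8.41e-06), Gsto1, an omega-class glutathione transferase, at -0.89 ± 0.14, Aldh2, the mitochondrial acetaldehyde dehydrogenase, at -0.67 ± 0.11, and Aldh3a1, another aldehyde dehydrogenase, at -1.08 ± 0.17 (adjusted p of 2.4e-04 or less for these 3). Adh7 had 7.30, 7.89, 7.85 and 7.54 CPM in knockout hypoxia, against 15.6, 16.8, 19.4 and 17.3 CPM in knockout room air, with no overlap. Those higher were Hmox1, the heme oxygenase that breaks heme down, at 0.76 ± 0.09 (edgeR adjusted p = 8.63e-06), the carboxylesterase Ces2e at 1.40 ± 0.30 (0.0031), the cytochrome b5 reductase Cyb5r3 at 0.36 ± 0.09 (0.00622) and the retinoid X receptor Rxrb at 0.31 ± 0.08 (0.0092). Hmox1 had 58.1, 48.7, 57.3 and 60.2 CPM in knockout hypoxia, against 29.4, 33.7, 32.6 and 36.9 CPM in knockout room air, and 35.9, 38.8, 37.5 and 33.5 CPM in wild type hypoxia, against 35.1, 33.4, 38.2 and 37.5 CPM in wild type room air. All 4 knockout hypoxia samples lay above the other 12 samples.

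In wild type, Ces2e rose at 1.25 ± 0.30 (edgeR adjusted p = 0.0189), and the carboxylesterases Ces1f at -1.12 ± 0.16 (0.000253) and Ces1g at -0.94 ± 0.21 (0.0128), the P450 gene Cyp2d22 at -0.54 ± 0.09 (0.00129) and Aldh2 at -0.42 ± 0.11 (0.0235) fell. Between genotypes in hypoxia, Hmox1 at 0.62 ± 0.09 (0.000194), the stress response factor gene Nfe2l2 at 0.55 ± 0.12 (0.00486), the paraoxonase Pon2 at 0.35 ± 0.10 (0.0178) and Fech, which places iron into heme, at 0.68 ± 0.20 (0.0251) were higher in the knockout. The glutathione transferases Gstm4 at -0.86 ± 0.17 (0.0023), Gsto1 at -0.65 ± 0.14 (0.00335) and Gstz1 at -0.31 ± 0.08 (0.00961) and the dehydrogenase Adh7 at -0.69 ± 0.14 (0.00234) were lower. Of the 103 genes, 2 (1.9%) passed the test of the difference between the hypoxia effects, beside 0.501% of all genes. They were Hmox1 at 0.74 ± 0.12 (0.0098) and Adh7 at -0.89 ± 0.19 (0.0392), with the call of Hmox1 lost in 1 and that of Adh7 in 17 of 30 alternatives. For hypoxia in wild type, Ces2e lost its call in 7 of 31 alternatives, Aldh2 in 6 and Ces1g in 3, and between genotypes in hypoxia Fech lost it in 7, Pon2 in 3 and Gstz1 in 1. For hypoxia in the knockout, Rxrb lost its call in 3, Cyb5r3 in 2 and Ces2e in 1, and the other calls of single genes of these lists named above held in all 31.

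**Figure D4:**
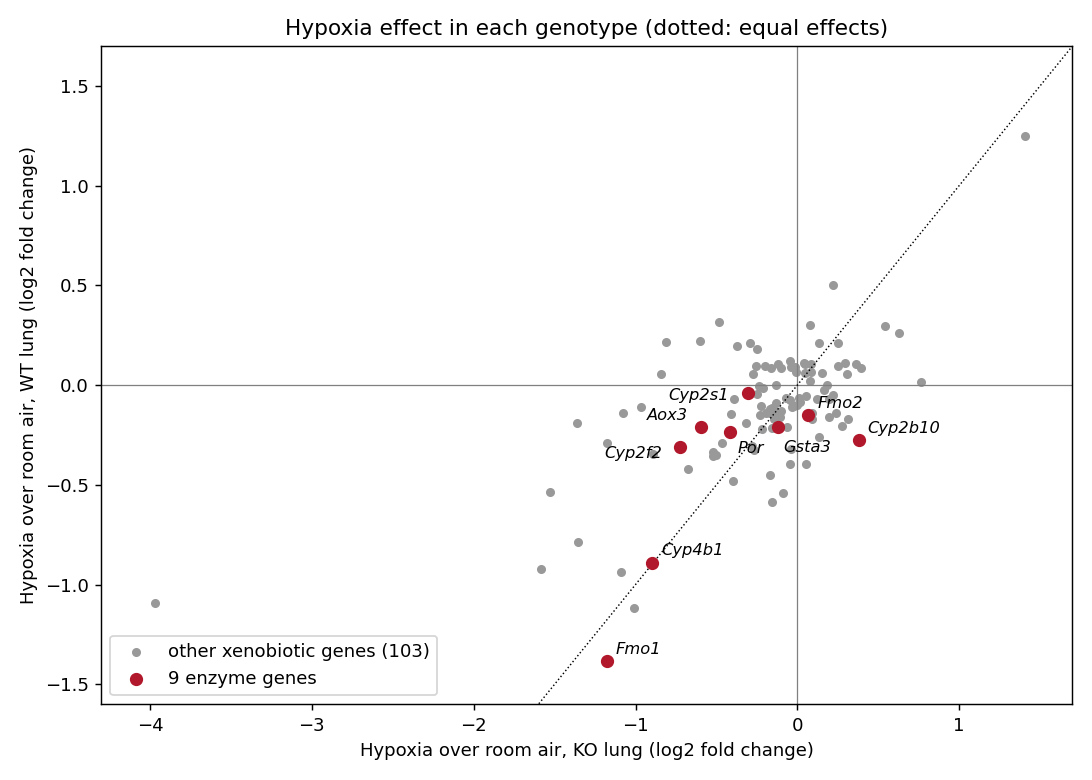
Log2 fold change for hypoxia over room air in knockout (KO) lung (x axis) and in wild type (WT) lung (y axis) for the 9 genes (red, named) and the 103 other xenobiotic genes (grey); the dotted line marks equal effects. Fmo1 and Cyp4b1 lie near the line at about -1.18 and -0.90 on the x axis, and Cyp2b10 lies at 0.38 and -0.28.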

How the data were processed

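RNA of frozen mouse lung was depleted of ribosomal RNA and sequenced from directional libraries, per the labels' protocols. Per the submitters' processing notes, the authors used Trim Galore, TopHat2, HTSeq and the mm10 build; no source used here gives versions, annotation or strand setting. Each deposited file holds whole-number read counts by gene symbol, for 24062 genes and 5 lines that name no gene, which stayed out of library sizes and tests (between 74.4% and 93.9% of each sample's summed lines, mostly alignments with several positions). In room air, 4 samples were deposited as 2 libraries, lettered A and B. They differed by 1.55 to 2.07 chi-square per degree of freedom, against 3.81 or more between other numbers of a group, and were summed, so that 20 libraries gave 16 samples. No column was left unused.

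All 16 samples entered 1 edgeR 4.0.16 quasi-likelihood fit in R 4.3.3 (TMM scaling, filterByExpr with a minimum count of 10 and minimum total of 15, robust, no covariate). It tested 15766 genes, with two-sided tests and Benjamini-Hochberg adjustment over all of them, and a gene is called under an adjusted p of 0.05. The biological coefficient of variation was 15.8%. The comparisons of one genotype or one oxygen level share groups with each other. The fit was tested on simulated data. DESeq2 1.42.0 and limma 3.58.1 (voom) served as alternatives. Depth was 9531270 to 63331530 reads in genes per sample. Correlations use log2 CPM with a prior count of 2. Gene positions and lengths come from GENCODE vM21, where 94.5% of symbols matched, and promoter sequences from RefSeq GRCm38.p6.

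The members and lists were chosen with earlier results of these data known. Named beside the 9 genes are, per comparison, up to 4 called genes each way with the smallest p among the other xenobiotic genes, the 3 genes of highest correlation with each member, defining cell markers, Arg2 and paralogs; some genes that this rule names are not reported here.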

Additional observations from a re-analysis of the deposited data

Results flagged for a closer look

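In 3 of the 36 gene and group combinations of the 9 genes, 1 of the 4 samples stood so far from the other 3 that its gap to the nearest, as a share of the group's range, exceeded the critical value of Dixon's test; chance gives about 1 in 20 such groups. Fmo1 was at 148.8 CPM in knockout hypoxia 4, below 165, 166 and 166 CPM in the rest of its group. Cyp2b10 was at 303.9 CPM in knockout room air 4, above 279, 281 and 283 CPM. Cyp4b1 was at 630.4 CPM in wild type room air 2, above 536, 543 and 546 CPM. Each of these samples stayed on its group's side of every difference called for that gene between hypoxia and room air. What set them apart was not tested.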

How the results depend on the processing

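Of the called results of the 9 genes, 370 values under 31 alternatives kept their call and direction and 33 lost the call; none changed sign. The falls of Fmo1 and Cyp4b1 in both genotypes, of Cyp2f2 and Aox3 in the knockout, and the genotype differences of Cyp2b10 and Por in hypoxia kept their calls under every alternative run. The count called in the knockout was 4 to 6 when each replicate was left out, with 2011 to 3056 of all genes called. It was 4 without knockout room air 3 and 4, with 1566 of 16095 genes called. It was 7 with the compared groups only (3424 of 15296 genes) and by plain library totals (2246 of 15766 genes). In wild type the count was 2 to 6, the 6 without wild type hypoxia 4 (917 of 15897 genes), and 4 by plain library totals (732 of 15766 genes). Between genotypes in hypoxia the count was 3 to 5 with a replicate left out, with 2093 to 4337 of all genes called. It was 3 without the 3 samples over the limit for markers of other organs, with 2510 of 16044 genes called. It was also 3 without the 3 samples with under 40% of reads in genes, with 2362 of 15868 genes called. That last setting, both kinds of library totals and the leaving out of knockout room air 3 and 4 were chosen after seeing the data. In room air the count was 0 to 1 with a replicate left out, 1 with the share of reads in genes as a covariate and 1 without those 3 low-share samples, each time Por. The calls over all genes rose there too, from 12 in the main fit. They were 2198 of 15915 without wild type room air 3, 1640 of 15766 with the covariate and 1856 of 15868 without the low-share samples. For the difference between hypoxia effects the count was 0 to 1 with a replicate left out and 1 under DESeq2 and by plain library totals, each time Cyp2b10. Of all genes, DESeq2 called 493 and the fit by plain totals 47 of 15766.

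Samples with the same number correlated at a median of 0.11 in their deviations, from -0.33 to 0.46, with 12 of 24 pairs over 0.1, against a median of -0.049 and 19 of 72 pairs for different numbers. These correlations cannot decide whether the numbers pair the samples, since a partial pairing could also leave some pairs low. The labels name no pairing, so the main fit had no block and the block was run as an alternative. With the replicate number as a block, 6, 2, 4, 0 and 1 of the 9 genes were called (hypoxia in knockout, hypoxia in wild type, genotypes in hypoxia, genotypes in room air, difference of effects), the last being Cyp2b10. Over all genes the block moved calls from 12 to 238 in room air and from 79 to 157 for the difference. For hypoxia in the knockout, hypoxia in wild type and genotypes in hypoxia it gave 2714, 823 and 3819 calls.

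Values near 0 that were not called changed sign. Leaving out a replicate gave -0.057 to 0.093 for Cyp2f2, -0.046 to 0.121 for Fmo2 and -0.060 to 0.049 for Gsta3 between genotypes in room air, -0.068 to 0.069 for Cyp4b1 in the difference of effects, -0.190 to 0.061 for Cyp2s1 in wild type hypoxia and -0.012 to 0.108 for Fmo2 in knockout hypoxia. Gsta3 in room air was 0.007 with the compared groups only and with library B alone, and 0.018 without the low-share samples. Without those samples Cyp2s1 was 0.047 and Fmo2 -0.012, and Cyp2s1 was 0.007 with library B alone. Cyp4b1 in the difference was 0.012 with the covariate and 0.006 without the organ-marker samples, where Fmo2 in room air was -0.007. By plain library totals Cyp4b1 in the difference was 0.027, and Gsta3 in room air 0.001. Without knockout room air 3 and 4 Cyp4b1 in the difference was 0.011, and in room air Cyp2f2 was -0.042 and Fmo1 0.017. The causes were not tested.

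Calls over all genes ranged from 1566 to 3424 for hypoxia in the knockout, 400 to 1129 in wild type, 2093 to 4337 between genotypes in hypoxia, 0 to 2198 in room air and 9 to 493 for the difference. Upper quartile scaling, under which the median of all genes stayed within 0.05 of 0, gave 1403 higher and 2228 lower between genotypes in hypoxia, against 1733 and 1900. Plain library totals, which moved the median of all genes by less than 0.1, gave 716 higher and 1530 lower for hypoxia in the knockout, against 1251 and 1434, and 239 and 493 in wild type, against 421 and 364; totals without Rn45s gave 922 and 1797 in the knockout. For the difference, 35 and 44 (upper quartile), 31 and 16 (plain totals) and 36 and 45 (without Rn45s) stood against 44 and 35. The lowest depth, 9531270 reads, is in wild type room air.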

Other observations

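Close relatives of the 9 genes that could share reads with them were mostly near the detection limit. Cyp2b9, Cyp2b13, Cyp2b19 and Cyp2b23 reached no more than 0.215 CPM in any sample, Gsta1 no more than 0.208 CPM, and Aox2 and Aox4 no more than 0.319 CPM. Among relatives with a measurable level, Gsta4, which conjugates the lipid peroxidation product 4-hydroxynonenal, fell to 45.6 ± 5.18 CPM in knockout hypoxia, against 62.8 ± 6.01 CPM in knockout room air (SD, n = 4 each; log2 fold change -0.46 ± 0.10, edgeR adjusted p = 0.00448), and it was lower than the 58.4 ± 7.57 CPM of wild type hypoxia (-0.36 ± 0.10, edgeR adjusted p = 0.021). In wild type lungs the hypoxia effect on Gsta4 was -0.29 ± 0.10 (edgeR adjusted p = 0.139), and the difference between the effects was -0.17 ± 0.15 (edgeR adjusted p = 0.667). Gsta2, at a low level, had 0.533 ± 0.122 CPM in knockout hypoxia and 1.53 ± 0.652 CPM in knockout room air (-1.53 ± 0.38, edgeR adjusted p = 0.00852). Gsta3 itself did not pass the test there.

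Fmo6, of the flavin-containing monooxygenase cluster of chromosome 1, was at a low level, no more than 2.67 CPM in any sample. In the knockout it fell to 0.386 ± 0.23 CPM in hypoxia, against 1.79 ± 0.597 CPM in room air (-2.25 ± 0.43, edgeR adjusted p = 0.00122). Wild type had 1.16 ± 0.356 CPM in hypoxia and 0.965 ± 0.486 CPM in room air (0.18 ± 0.40, edgeR adjusted p = 0.882). The difference between these effects, -2.43 ± 0.59, did not pass (edgeR adjusted p = 0.0675). Aox1, the neighbour of Aox3, averaged 78.0 ± 6.82 CPM in knockout hypoxia and 82.0 ± 8.04 in knockout room air, -0.07 ± 0.10 (edgeR adjusted p = 0.707), beside the fall of Aox3 by 0.60 log2 units in the same samples.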
